A study of Mus musculus with 12 samples.

Results

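The transforming growth factor beta (TGF-beta) genes described here are 9 of the 24100 genes listed in the count table of an RNA-seq study of mouse embryonic fibroblasts (MEFs) lacking RTF2, a protein of the replication machinery. They were chosen by name as the ligands Tgfb1, Tgfb2 and Tgfb3, the latent ligand binding proteins Ltbp1 and Ltbp2, the receptors Tgfbr1 and Tgfbr2, the inhibitor Smad7 and the secreted target Tgfbi, and each was found under its Entrez Gene number. Loss of RTF2 moved none of the 9 past the test over both MEF lines. In the test within line 2, Tgfbr1 was higher and Tgfbr2 and Ltbp1 were lower in RTF2-deficient MEFs. For these 3 genes the WT libraries of line 2 stood apart from the other 9 libraries. A difference in effect between the lines, tested as an interaction, was called for 0 of the 3 with edgeR and for all 3 with DESeq2. Ltbp2 had the largest fold change of the 9, and within each group of libraries its level followed that of the interferon-stimulated genes.

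TGF-beta is secreted by fibroblasts as a latent complex. The cleaved propeptide stays wrapped around the mature ligand and is linked to an LTBP, which tethers it to fibrillin and fibronectin in the matrix until integrins or proteases release it. The free ligand binds the type II receptor TGFBR2, which recruits and phosphorylates the type I receptor TGFBR1, and TGFBR1 in turn phosphorylates SMAD2 and SMAD3. These enter the nucleus with SMAD4 and switch on matrix and cytoskeletal genes, of which fibroblasts have many, together with the feedback inhibitor SMAD7.

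The MEFs were immortalized with SV40. WT MEFs were Rtf2+/+ and RTF2-deficient MEFs were Rtf2-/lox, and all 4 groups, controls included, had received Cre by retrovirus 72 hrs before RNA was taken. Line 1 and line 2 came from different mothers, with WT littermates as controls, and each line and genotype was sequenced as 3 libraries, 12 in all. The study describes the 3 libraries of a group as technical replicates, so the 2 lines are the sole biological replication and p-values measure the spread between those libraries. Whether the libraries of a group came from a single culture is not stated. MEFs were isolated at embryonic day 13.5, and Rtf2-/lox cells lose RTF2 only where Cre has acted, which makes each RTF2-deficient group a population and not a clone.

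Each library held 39360167 to 44695002 counts, and the groups overlapped in depth. Counts are given as TMM-normalized CPM, counts scaled to library size, and levels are compared between genes per kilobase of exon. Rtf2 lay between 44.8 and 57.8 CPM in the 6 WT libraries and between 5.44 and 6.66 CPM in the 6 RTF2-deficient libraries, in keeping with the labels. The 3 WT libraries of line 2 stood apart in sex-linked genes. Xist, the RNA of the inactive X chromosome, was at most 0.132 CPM there and at least 102.9 CPM in the other 9 libraries, and the Y-linked Ddx3y was at least 91.8 CPM there and at most 0.195 CPM elsewhere. Interferon-stimulated genes, 15 in all, varied widely within and between groups, and WT line 2 overlapped RTF2-deficient line 2. Their summed level was 718 to 7279 CPM in WT line 2, 78.6 to 415 in WT line 1, 75.8 to 159 in RTF2-deficient line 1 and 154 to 2769 in RTF2-deficient line 2. In line 2, then, genotype cannot be told apart from sex-linked differences between the embryos. The fibroblast label was met in part. The 10 fibroblast markers summed to 12840 to 20396 CPM with none at 0, through Col1a1, Col1a2 and Vim above all, while Dcn (0.90 to 1.24 CPM by group mean), Lum (0.337 to 0.908) and Pdgfra (5.67 to 20.1) were low. Of these markers Prrx1 (log2 fold change -0.47, edgeR adjusted p = 0.00151) and Twist1 (-0.27, adjusted p = 0.034) were lower in RTF2-deficient cells over both lines. The 8 smooth muscle and myofibroblast markers were not low. They summed to 8578 to 10187 CPM in WT and 9922 to 10542 in RTF2-deficient line 1, and to 4374 to 8575 and 6964 to 8354 in line 2. Over both lines 0 of these 8 were called by edgeR. Actg2 was called higher in RTF2-deficient line 2, with means of 150 CPM in WT and 390 in RTF2-deficient cells, against 615 and 485 in line 1. Markers of endothelial, blood and epithelial cells were low but moved in part with genotype. The 8 endothelial markers summed to 10.9 to 14.8 CPM in WT and 17.8 to 21.6 in RTF2-deficient line 1, and to 13.3 to 16.0 and 14.4 to 19.1 in line 2, with Kdr higher over both lines (0.58, adjusted p = 0.0492). The 8 macrophage and blood markers summed to 5.62 to 6.74 CPM in WT and 4.56 to 5.53 in RTF2-deficient line 1, and to 10.6 to 13.7 and 8.01 to 9.11 in line 2, where Cd68 was lower (-1.07, adjusted p = 0.00809). The 8 epithelial markers summed to 23.8 to 46.6 and 22.7 to 49.6 CPM in line 1 and to 48.3 to 91.2 and 35.1 to 82.6 in line 2, with Krt18 higher over both lines (0.74, adjusted p = 0.0381). In any library 0 to 3 of each of these lists of 8 were at 0. The part of these markers in the results was not tested. In bulk RNA, fewer cells of a type and less RNA per cell cannot be told apart.

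Of 14263 genes tested with edgeR's quasi-likelihood test, 13.2% had a Benjamini-Hochberg adjusted p under 0.05 for genotype over both lines, with line as a term. All 9 TGF-beta genes were tested and 0 were called. At an unadjusted p under 0.05 there were 3, Tgfb1, Ltbp1 and Ltbp2, where 28.5% of all tested genes were. DESeq2 with the same terms called 1, Ltbp2, and 18.9% of all genes. The genotypes overlapped for all 9, where 5.97% of tested genes had 6 WT and 6 RTF2-deficient libraries that did not overlap. Within line 1, 3.20% of genes were called, with 0 of the 9 among them by edgeR, by an unadjusted p under 0.05 (13.9% of all genes) or by DESeq2 (5.98% of all genes). DESeq2 had 1 of the 9, Tgfb3, at an unadjusted p under 0.05. Within line 2, 12.5% of genes were called and 3 of the 9, Tgfbr1 upward and Tgfbr2 and Ltbp1 downward. The tests of both lines use the same control libraries as the tests within each line.

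**Figure D1:**
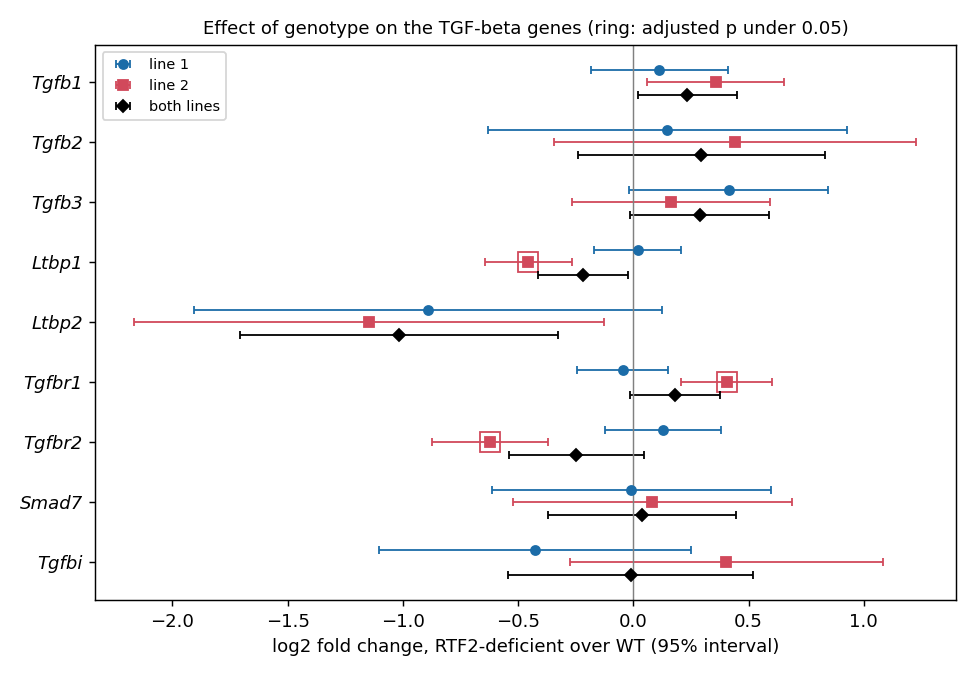
Log2 fold change of RTF2-deficient over WT for each of the 9 genes (x axis) in line 1 (blue circles), line 2 (red squares) and both lines (black diamonds), with 95% intervals of the edgeR fit. The 3 ringed values, Ltbp1, Tgfbr1 and Tgfbr2 in line 2, had an adjusted p under 0.05, and Ltbp2 lay farthest from 0 over both lines at -1.02.

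Among the ligands, Tgfb3 transcripts were by far the most abundant. Per kilobase of exon, the mean level of Tgfb3 was 172 ± 34.8 CPM in WT line 1, 229 ± 67.8 in RTF2-deficient line 1, 149 ± 3.99 in WT line 2 and 166 ± 22 in RTF2-deficient line 2 (SD, n = 3 libraries each). Tgfb3 made up 84.4 to 92.0% of the summed ligand level per kilobase in the 12 libraries, and on the longest annotated transcript in place of all exons its mean share by group was 81.5 to 87.6%. The order of Tgfb2 and Tgfb1 in line 2 depended on the length used. On all exons Tgfb2 held a mean of 9.94% in WT line 1 and 8.59% in RTF2-deficient line 1 but 4.18% and 5.05% in the same genotypes of line 2, where Tgfb1 held 4.18% and 4.73%. On the longest transcript the line 2 means were 13.2 CPM per kilobase for Tgfb1 against 7.70 for Tgfb2 in WT and 17.0 against 10.5 in RTF2-deficient cells.

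Tgfb3 (Entrez 21809, GRCm38 chr12:86056743-86079041, minus strand), the ligand best known from palate and wound closure, had 718, 512 and 515 CPM in WT line 1 and 1039, 654 and 632 in RTF2-deficient line 1. It had 489, 516 and 503 CPM in WT line 2 and 521, 518 and 648 in RTF2-deficient line 2. In line 2 the genotypes did not overlap, but the closest libraries were 516 and 518 CPM, and in line 1 a single WT library at 718 CPM lay above 2 of the RTF2-deficient ones. Each RTF2-deficient library of line 1 was above the WT library of the same number, and in a fit with the replicate number as a block the line 1 value was 0.39 (edgeR adjusted p = 0.118). The log2 fold change was 0.29 over both lines (SE 0.138, edgeR adjusted p = 0.193), 0.41 in line 1 and 0.16 in line 2. Its exons share 4.82% and 7.60% of their bases with a pair of opposite-strand transcripts, and since strand-specific counting is not given in the sources used here, reads of those stretches cannot be assigned to a strand.

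Tgfb1 (Entrez 21803, chr7:25687002-25705077, plus strand), the ligand most often studied in fibrosis, was at 37.9, 44.5 and 40.0 CPM in WT line 1 and at 42.7, 45.3 and 44.4 in RTF2-deficient line 1. In line 2 it was at 41.4, 29.0 and 31.7 CPM in WT and at 37.1, 48.1 and 45.6 in RTF2-deficient cells. The genotypes overlapped in both lines, in line 2 through a single WT library at 41.4 CPM. The log2 fold change over both lines was 0.24 with a 95% interval of 0.02 to 0.45 (SE 0.0981, edgeR adjusted p = 0.139), and the two-sided exact permutation test of 6 against 6 libraries gave p = 0.0519, where 0.00216 is the smallest value it can give. That test does not take line into account and counts technical replicates as units. With the interferon score, a median over interferon-stimulated genes described below, as a term, Tgfb1 was called within line 2 (0.49, SE 0.145, edgeR adjusted p = 0.0483). Without WT line 2 replicate 1, the library at 41.4 CPM, the log2 fold change within line 2 was 0.53 (edgeR adjusted p = 0.0165) against 0.36 (adjusted p = 0.11) with it, and that between the WT lines was -0.44 (adjusted p = 0.0341) against -0.26 (adjusted p = 0.237).

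Tgfb2, the ligand whose latent complex lacks the integrin-binding motif of the other two, was the gene that told the lines apart (Entrez 21808, chr1:186622787-186709697, minus strand). It was at 183, 103 and 72.3 CPM in WT line 1 and at 194, 116 and 86.8 in RTF2-deficient line 1, and at 29.4, 50.8 and 38.0 CPM in WT line 2 and 57.9, 45.4 and 57.4 in RTF2-deficient line 2. All 6 libraries of line 1 lay above all 6 of line 2, and no other of the 9 genes separated the lines in this way, which 6.23% of tested genes did. Between the WT groups, Tgfb2 was lower in line 2 by a log2 fold change of -1.60 (SE 0.363, edgeR adjusted p = 0.0135). Between the RTF2-deficient groups the value was -1.31 (SE 0.36, adjusted p = 0.112). Tgfb2 was the sole TGF-beta gene among the 6.76% of genes called with a log2 fold change beyond 1 between the WT lines, and its call was lost without WT line 2 replicate 1 at 29.4 CPM (-1.44, adjusted p = 0.0545). For genotype its log2 fold change was 0.29 (SE 0.245, adjusted p = 0.457), with an interval of -0.24 to 0.83.

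**Figure D2:**
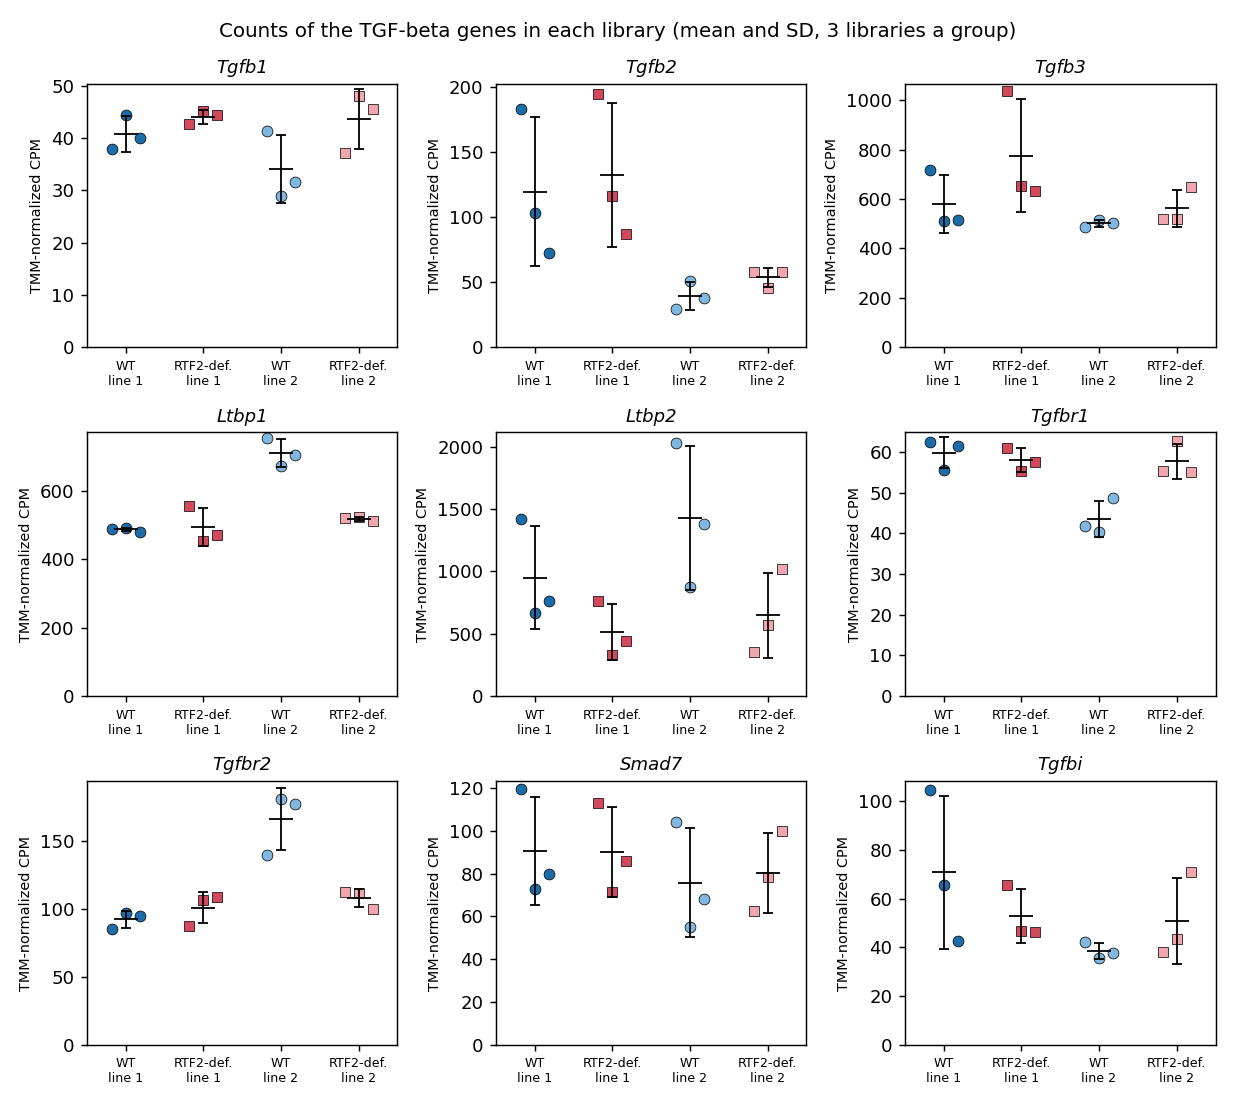
TMM-normalized CPM (y axes, each from 0) of the 9 genes in the 12 libraries, by genotype and line, with the mean and SD of 3 libraries. Tgfb2 is lower in both line 2 groups (29.4 to 57.9 CPM) than in both line 1 groups (72.3 to 194 CPM), and WT line 2 stands alone for Ltbp1, Tgfbr1 and Tgfbr2.

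The latent binding proteins differed in how steady they were. Ltbp2 (Entrez 16997, chr12:84783212-84876558, minus strand), a fibrillin-like protein of elastic fibres that does not itself bind latent TGF-beta, was at 1422, 663 and 766 CPM in WT line 1 and at 764, 332 and 442 in RTF2-deficient line 1. In line 2 it was at 2029, 876 and 1384 CPM in WT and at 352, 569 and 1018 in RTF2-deficient cells. Each WT mean was above the mean of its RTF2-deficient group, but libraries of a group spread widely, with coefficients of variation of 40.4 to 52.5%, and the genotypes overlapped in both lines. Each RTF2-deficient library of line 1 was below the WT library of the same number, at 764 against 1422, 332 against 663 and 442 against 766 CPM. The log2 fold change was -1.02 over both lines (SE 0.316, 95% interval -1.71 to -0.33), -0.89 in line 1 and -1.15 in line 2. The edgeR adjusted p over both lines was 0.0538, just outside the threshold, and the exact permutation test over 6 against 6 libraries gave a two-sided p of 0.0195, without regard to line and with technical replicates as units. DESeq2 gave an adjusted p of 0.0419, and edgeR with the replicate number as a block gave a log2 fold change of -1.03 with an adjusted p of 0.0427. Without RTF2-deficient line 1 replicate 1 (764 CPM) the edgeR adjusted p was 0.028, without RTF2-deficient line 2 replicate 3 (1018 CPM) 0.0332, and without WT line 1 replicate 2 (663 CPM) 0.0497. Within line 2 the adjusted p was 0.134, and 0.0455 without replicate 3 of the RTF2-deficient cells. Exons of an opposite-strand transcript overlap 9.34% of its exon bases.

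Much of the spread of Ltbp2 ran with interferon-stimulated genes. Their score, the median log2(CPM + 0.5) of the 15 genes, was 4.02, 1.31 and 2.06 in WT line 1, 2.11, 1.13 and 1.38 in RTF2-deficient line 1, 8.81, 5.05 and 7.01 in WT line 2 and 1.996, 3.59 and 7.34 in RTF2-deficient line 2. In each of the 4 groups the library with the highest score had the most Ltbp2 and the library with the lowest score the least. The same held for Smad7, and these were 2 of the 9 genes, where 2.50% of tested genes kept such an order in all 4 groups. Of the 15 interferon-stimulated genes, 0 were called by edgeR for genotype over both lines and 0 had an unadjusted p under 0.05 (median log2 fold change -1.68), while 8 were higher in WT line 2 than in WT line 1 (median 4.96). With the score as a further term, an alternative added after the values were seen, the genotype log2 fold change of Ltbp2 was -0.46 (SE 0.154, edgeR adjusted p = 0.0769). Within line 1 it was -0.55 (SE 0.19, adjusted p = 0.141) and within line 2 -0.32 (SE 0.226, adjusted p = 0.39), and between the WT groups it turned from 0.59 (adjusted p = 0.454) to -0.89 (adjusted p = 0.0437).

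**Figure D3:**
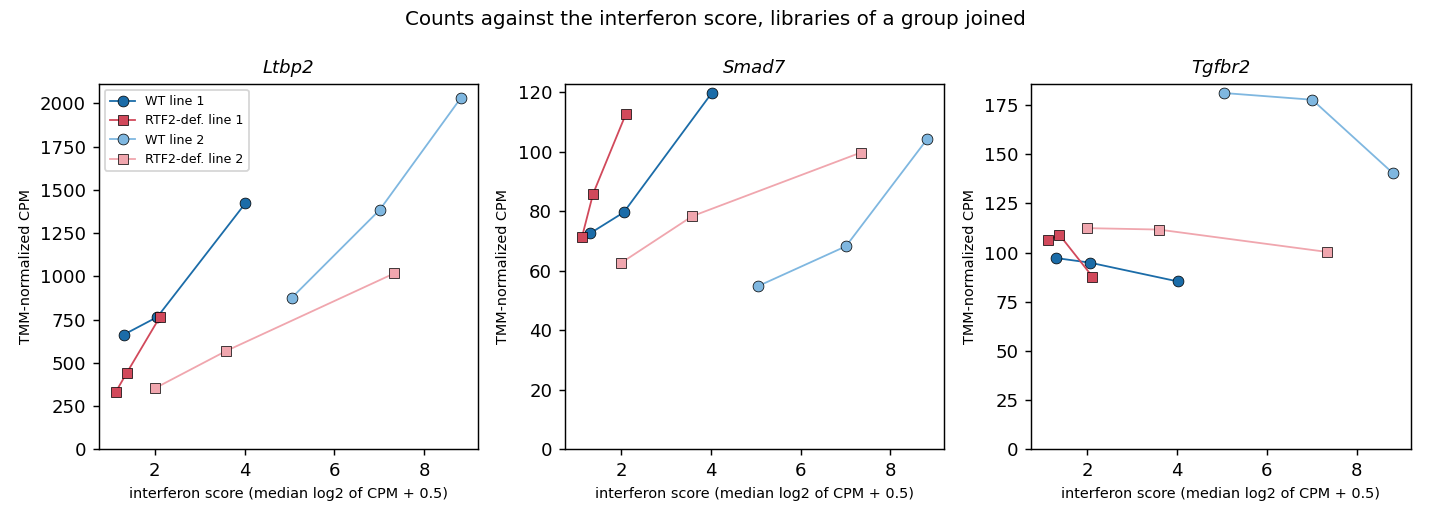
TMM-normalized CPM of Ltbp2, Smad7 and Tgfbr2 (y axes, each from 0) against the interferon score, the median log2(CPM + 0.5) of 15 interferon-stimulated genes, with the 3 libraries of a group joined. Ltbp2 and Smad7 rise along the score in all 4 groups, and Tgfbr2 does not.

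Ltbp1 (Entrez 268977, chr17:75005480-75392512, plus strand), which carries latent TGF-beta into the matrix, was far steadier. It was at 489, 491 and 481 CPM in WT line 1 and at 557, 453 and 470 in RTF2-deficient line 1, against 755, 673 and 704 in WT line 2 and 521, 522 and 512 in RTF2-deficient line 2. The 3 WT libraries of line 2 lay above the other 9, and those 9 lay between 453 and 557 CPM. Within line 2 Ltbp1 was lower in RTF2-deficient cells by a log2 fold change of -0.46 (SE 0.0864, edgeR adjusted p = 0.00679), or 0.730 of the WT level. Within line 1 the value was 0.02 (SE 0.0863, adjusted p = 0.961), and the difference between the lines, tested as an interaction, was -0.47 (SE 0.122, adjusted p = 0.117). Over both lines it was -0.22 (adjusted p = 0.136), and without RTF2-deficient line 1 replicate 1 (557 CPM) the adjusted p fell to 0.0298.

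Both LTBPs outside the 9 genes differed by genotype. Ltbp3, which like Ltbp1 binds latent TGF-beta, was at 224, 171 and 158 CPM in WT line 1 and at 121, 78.4 and 82.5 in RTF2-deficient line 1. It was at 281, 174 and 188 CPM in WT line 2 and at 67.3, 75.2 and 118 in RTF2-deficient line 2, so no RTF2-deficient library reached any WT library. As for Ltbp2, the library with the highest interferon score had the most Ltbp3 in each group. The full order followed the score in all groups but WT line 1. Ltbp3 fell with a log2 fold change of -1.14 (SE 0.184, edgeR adjusted p = 0.0018), with -0.97 in line 1 and -1.31 in line 2. Ltbp4, an organizer of elastic fibres, fell by 0.62 on the log2 scale (SE 0.0921, adjusted p = 0.000974), with -0.60 in line 1 and -0.65 in line 2. Its genotypes did not overlap within either line, at 81.8 to 88.4 CPM against 50.8 to 65.5 in line 1 and 54.9 to 74.1 against 34.0 to 42.8 in line 2. Summed over the 4 LTBPs per kilobase, transcripts came to 195 ± 53.6 CPM in WT line 1 and 128 ± 36.4 in RTF2-deficient line 1, and to 275 ± 80.7 in WT line 2 and 143 ± 44.5 in RTF2-deficient line 2 (SD, n = 3). Ltbp2 was the largest share in each group, with means of 47.6 to 62.2%.

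**Figure D4:**
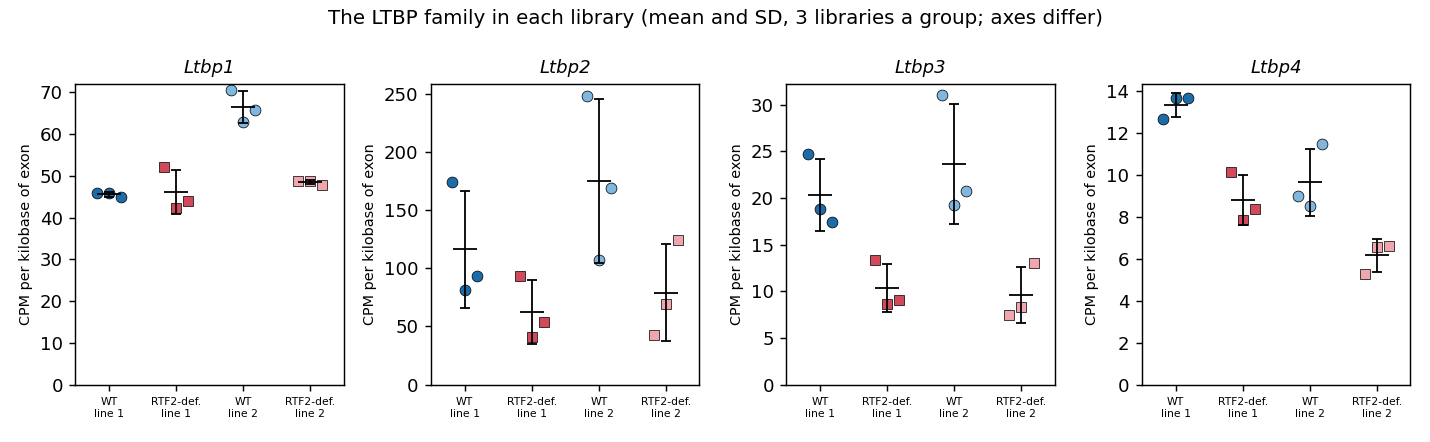
CPM per kilobase of exon of the 4 LTBP genes (y axes from 0, with different ranges) in the 12 libraries, with the mean and SD of 3 libraries a group. Ltbp3 and Ltbp4 are lower in RTF2-deficient cells in both lines (log2 fold changes -1.14 and -0.62), Ltbp1 is raised in WT line 2 alone, and Ltbp2 spreads widely within each group.

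WT line 2 stood out in both receptors, in opposite directions. Tgfbr2 (Entrez 21813, chr9:116087695-116175363, minus strand), the ligand-binding type II kinase, was at 85.3, 97.2 and 94.9 CPM in WT line 1 and at 87.8, 106 and 109 in RTF2-deficient line 1. It was at 140, 181 and 178 CPM in WT line 2 and at 112, 112 and 100.3 in RTF2-deficient line 2. All 3 WT libraries of line 2 were above the other 9, which lay between 85.3 and 112 CPM. Within line 2 Tgfbr2 was lower in RTF2-deficient cells by a log2 fold change of -0.62 (SE 0.114, edgeR adjusted p = 0.00574), or 0.650 of WT, whereas the value in line 1 was 0.13 (SE 0.114, adjusted p = 0.724). Between the WT groups, Tgfbr2 was higher in line 2 by 0.85 (SE 0.115, adjusted p = 0.000666), and between the RTF2-deficient groups the difference was 0.10 (SE 0.114, adjusted p = 0.8).

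Tgfbr1 (Entrez 21812, chr4:47353222-47414926, plus strand), the type I kinase that phosphorylates SMADs, moved the other way. It was at 62.6, 55.6 and 61.5 CPM in WT line 1, at 61.1, 55.3 and 57.7 in RTF2-deficient line 1, at 41.9, 40.4 and 48.7 in WT line 2 and at 55.4, 62.8 and 55.2 in RTF2-deficient line 2. The WT libraries of line 2 lay below the other 9, all of which were between 55.2 and 62.8 CPM. Within line 2 Tgfbr1 was higher in RTF2-deficient cells by a log2 fold change of 0.41 (SE 0.0896, edgeR adjusted p = 0.0139), or 1.32-fold, a call lost without RTF2-deficient line 2 replicate 2 at 62.8 CPM (0.35, adjusted p = 0.0614). Within line 1 the value was -0.05 (SE 0.0894, adjusted p = 0.898).

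Whether the effect of genotype differed between lines was tested as an interaction, which called 1.29% of genes and 0 of the 9 with edgeR. At an unadjusted p under 0.05 there were 3, Ltbp1, Tgfbr1 and Tgfbr2, against 8.49% of all genes, and DESeq2 called these 3 and 2.87% of all genes. Tgfbr2 came nearest with -0.75 (SE 0.161, edgeR adjusted p = 0.0541), and it was called without RTF2-deficient line 1 replicate 1 (adjusted p = 0.0457) or without WT line 2 replicate 1 (adjusted p = 0.0213). For 3 of the 9 genes, Ltbp1, Tgfbr1 and Tgfbr2, the WT libraries of line 2 lay outside the range of the other 9 libraries, as they did for 12.7% of tested genes. Within line 2 alone the 3 libraries of each genotype did not overlap for 4 of the 9, these 3 and Tgfb3, against 29.5% of genes, and within line 1 for 0 of the 9 against 21.1%. Between the WT groups 14.0% of genes were called and 4 of the 9, Ltbp1 and Tgfbr2 higher and Tgfb2 and Tgfbr1 lower in line 2. Between the RTF2-deficient groups 1.94% were called and 0 of the 9 with edgeR, with Tgfb2 and Tgfb3 at an unadjusted p under 0.05 (13.4% of all genes) and Tgfb2 called by DESeq2 (4.87% of all genes). With the interferon score as a term, added after the values were seen, the differences within line 2 were -0.41 for Ltbp1 (SE 0.0952, edgeR adjusted p = 0.017), 0.43 for Tgfbr1 (SE 0.105, adjusted p = 0.0221) and -0.78 for Tgfbr2 (SE 0.0983, adjusted p = 0.000726), and the interaction of Tgfbr2 was -0.85 (SE 0.123, adjusted p = 0.00613). The sex-linked genes set WT line 2 apart just as these 3 genes do, and their part in the values was not tested.

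The ratio of both receptors within a library, per kilobase of exon, removes library depth. Tgfbr2 over Tgfbr1 was 1.09, 1.39 and 1.23 in WT line 1, 1.15, 1.54 and 1.51 in RTF2-deficient line 1, 2.67, 3.58 and 2.91 in WT line 2 and 1.62, 1.42 and 1.45 in RTF2-deficient line 2. The 9 libraries outside WT line 2 stayed between 1.09 and 1.62, and the mean of WT line 2 was 3.05 ± 0.471 (SD, n = 3).

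**Figure D5:**
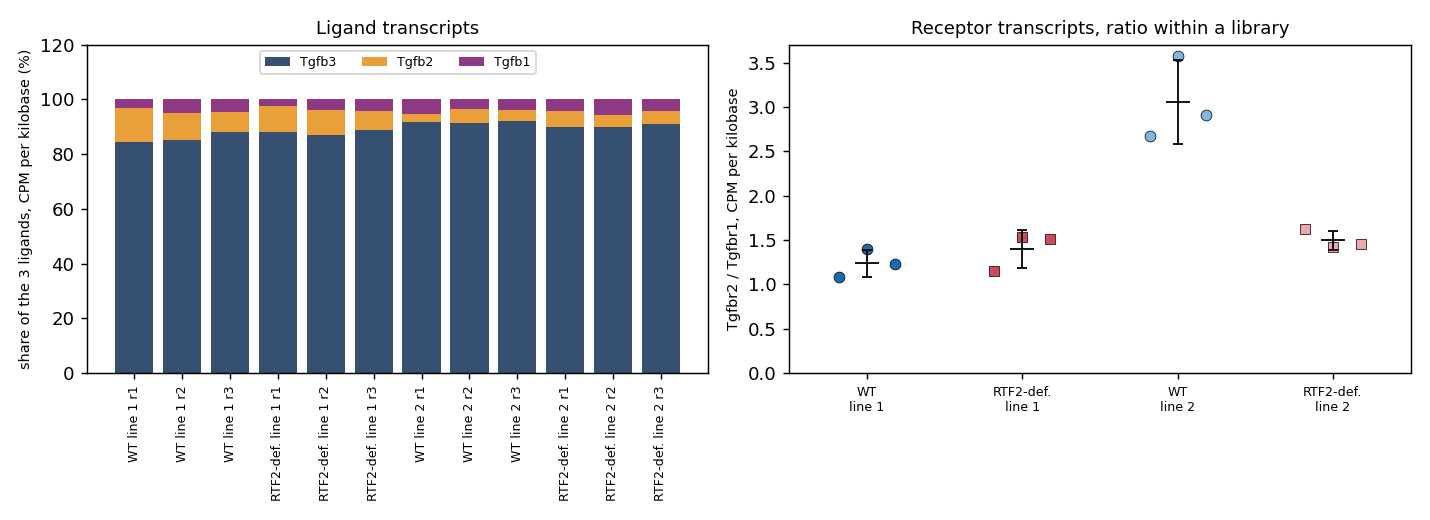
Left, share of the summed level of the 3 ligands per kilobase of exon (y axis, percent) in each library. Right, Tgfbr2 over Tgfbr1 per kilobase of exon with the mean and SD of 3 libraries a group. Tgfb3 makes up 84.4 to 92.0% of the ligand level in every library, and the receptor ratio is 2.67 to 3.58 in WT line 2 against 1.09 to 1.62 elsewhere.

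Promoter windows are shown for both receptors and both LTBPs of the 9 genes, which include the 3 genes with WT line 2 apart from the other libraries. No window of Smad7 was used here, and none was available for Tgfb3. Each is RefSeq GRCm38.p6 sequence from 250 bases before to 50 after the annotated start, 5′ to 3′ on the gene's strand, with capitals for CAGAC or its reverse complement GTCTG, the short SMAD binding element. Tgfbr1 is chr4:47352972-47353271 (plus), Tgfbr2 chr9:116175314-116175613 (minus), Ltbp1 chr17:75005279-75005578 (plus) and Ltbp2 chr12:84876442-84876741 (minus).
Tgfbr1: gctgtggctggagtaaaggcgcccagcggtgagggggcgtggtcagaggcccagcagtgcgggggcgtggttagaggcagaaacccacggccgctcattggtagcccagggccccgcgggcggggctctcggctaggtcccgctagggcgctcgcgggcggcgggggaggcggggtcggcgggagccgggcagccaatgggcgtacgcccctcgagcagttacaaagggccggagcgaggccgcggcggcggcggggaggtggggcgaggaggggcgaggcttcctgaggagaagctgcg
Tgfbr2: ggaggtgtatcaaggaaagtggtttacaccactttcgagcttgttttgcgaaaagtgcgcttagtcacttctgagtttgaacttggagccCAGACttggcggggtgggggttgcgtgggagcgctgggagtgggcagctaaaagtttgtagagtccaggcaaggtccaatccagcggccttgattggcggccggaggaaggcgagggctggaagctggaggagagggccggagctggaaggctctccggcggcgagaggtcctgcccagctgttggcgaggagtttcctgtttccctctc
Ltbp1: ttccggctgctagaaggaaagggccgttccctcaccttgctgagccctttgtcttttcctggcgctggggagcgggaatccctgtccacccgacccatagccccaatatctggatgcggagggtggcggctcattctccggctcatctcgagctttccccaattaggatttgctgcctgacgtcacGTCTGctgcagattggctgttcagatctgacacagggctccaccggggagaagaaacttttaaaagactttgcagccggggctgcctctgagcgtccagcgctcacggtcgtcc
Ltbp2: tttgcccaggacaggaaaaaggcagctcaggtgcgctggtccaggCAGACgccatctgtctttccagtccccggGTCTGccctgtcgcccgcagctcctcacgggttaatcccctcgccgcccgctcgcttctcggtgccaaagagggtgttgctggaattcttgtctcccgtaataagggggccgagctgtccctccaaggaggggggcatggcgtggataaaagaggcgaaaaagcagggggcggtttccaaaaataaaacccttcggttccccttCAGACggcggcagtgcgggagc
The element was absent from this Tgfbr1 window, present at 1 place in that of Tgfbr2 and in that of Ltbp1, and at 3 places in that of Ltbp2. At a further annotated start of Tgfbr1 the window held 1 and at one of Ltbp1 it held 2. Of the 9 windows that 7 of the genes have in the table, 7 held CAGAC on either strand, and 49.6% of all 32851 windows of this length did. A GC box (GGGCGG, either strand) was in 4 of the 9 against 35.7% of all windows. The AP-1 site TGACTCA, searched on both strands, was in 0 against 5.2%. The interferon response motif, searched as GAAA, 2 bases of any kind and GAAA on either strand, was in 1, that of Tgfbi, against 3.44%. Neither it nor the AP-1 letters lie in the Ltbp2 window. These matches describe letters in a window and do not show binding.

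Smad7 (Entrez 17131, chromosome 18, plus strand), the inhibitory SMAD that TGF-beta itself induces, was at 120, 72.7 and 79.7 CPM in WT line 1 and at 113, 71.5 and 85.9 in RTF2-deficient line 1. In line 2 it was at 104, 54.9 and 68.3 CPM in WT and at 62.6, 78.4 and 99.8 in RTF2-deficient cells. The genotypes overlapped almost completely in both lines, with a log2 fold change of 0.04 (SE 0.187, 95% interval -0.37 to 0.44, edgeR adjusted p = 0.921). As described above, its order within every group was that of the interferon score. Without that score as a term, edgeR gave Smad7 no unadjusted p under 0.05 for genotype or between lines. The score was added as a term after the values were seen, and it differed between the WT lines itself. With that score as a term Smad7 was higher in RTF2-deficient cells of line 2 (0.61, SE 0.165, edgeR adjusted p = 0.0336), lower in line 2 than in line 1 among WT (-1.12, adjusted p = 0.00393) and RTF2-deficient cells (-0.69, adjusted p = 0.0257), and at 0.35 for genotype over both lines (adjusted p = 0.0967).

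Tgfbi (Entrez 21810, chr13:56609586-56639359, plus strand), which encodes a secreted adhesion protein named for its induction by TGF-beta, was at 105, 65.7 and 42.5 CPM in WT line 1 and at 65.5, 46.6 and 46.4 in RTF2-deficient line 1. It was at 42.1, 35.5 and 37.7 CPM in WT line 2 and at 37.9, 43.5 and 71.1 in RTF2-deficient line 2. The direction differed by line, at -0.42 (SE 0.308, edgeR adjusted p = 0.639) in line 1 and 0.40 (SE 0.308, adjusted p = 0.433) in line 2. The interaction of 0.83 (SE 0.435, adjusted p = 0.691) did not pass the test, and over both lines the value was -0.01 (SE 0.243, adjusted p = 0.979). In each of the 4 groups the library with the highest interferon score also had the most Tgfbi, although the full order was kept in 2. With the interferon score as a term Tgfbi was higher in RTF2-deficient cells of line 2 by 0.81 (SE 0.237, adjusted p = 0.0456). Between the WT groups Tgfbi was lower in line 2 by a log2 fold change of -0.88 (SE 0.31, adjusted p = 0.084), which passed without WT line 1 replicate 3 at 42.5 CPM (-1.16, adjusted p = 0.0239) and without RTF2-deficient line 2 replicate 3 at 71.1 CPM (-0.90, adjusted p = 0.0498). It also passed with DESeq2 (adjusted p = 0.0217) and with the interferon score as a term (-1.63, adjusted p = 0.00387).

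Per kilobase of exon the highest of the 9 genes kept much the same order of levels in each group. Tgfb3 and Ltbp2 led, with Ltbp2 above Tgfb3 in WT line 2 (175 ± 70.6 against 149 ± 3.99 CPM, SD, n = 3) by less than the spread between libraries. Ltbp1 came next at 45.5 to 66.5 CPM by group mean. Smad7, Tgfbi, Tgfbr2 and Tgfb2 formed a middle range whose group means, from 6.81 to 22.9 CPM, overlapped. Tgfbr1 at 6.68 to 9.17 and Tgfb1 at 6.75 to 8.75 CPM were the lowest in each group. The place of Tgfb1 did not hold with the longest transcript as length, where it was at 13.2 to 17.2 CPM, above Tgfbr1 in each group, above Tgfb2 in both groups of line 2 and above Tgfbr2 in all groups but WT line 2.

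Across the 12 libraries, Tgfbr1 and Tgfbr2 ran opposite to each other (Pearson r of log2 CPM = -0.849), as did Ltbp1 and Tgfbr1 (r = -0.813), while Ltbp1 and Tgfbr2 (r = 0.796) and Tgfb2 and Tgfb3 (r = 0.791) ran together. These describe 12 libraries of 4 groups that share lines, with technical replicates within a group. By the same measure over the same 12 libraries, the tested genes most like each of the 9, up to 2 for each, were as follows. For the ligands they were Itgb3 (r = 0.95) and Agfg1 (0.922) with Tgfb1, Pde1a (0.981) and Tmem98 (0.98) with Tgfb2, and Dnajc14 (0.953) and Tsc22d1 (0.947) with Tgfb3. For the binding proteins they were Elovl7 (r = 0.973) and Atp11a (0.961) with Ltbp1, and Trim7 (0.968) with Ltbp2. For the receptors they were Bcat1 (r = 0.969) and Spata18 (0.958) with Tgfbr1, and Sirt7 (0.97) and Herc3 (0.962) with Tgfbr2. For Smad7 they were Rmdn2 (r = 0.979) and Rmnd5a (0.97), and for Tgfbi Rftn2 (0.938) and Emilin3 (0.933).

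Around the 9 genes, 82 further genes of the pathway were listed by role, and 81 of them were tested. Over both lines 12 were higher and 4 lower in RTF2-deficient cells and 65 did not pass, against 4.98% of all tested genes called higher and 8.18% called lower. The 16 called were 19.8% of the 81, against 13.2% of all tested genes, in lists chosen with earlier results of these data known. The median log2 fold change of the 81 was 0.09, against 0.00194 over all genes. Ltbp3 alone was among the 1.72% of genes called with a log2 fold change beyond 1.

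Of 17 genes of latency and activation, Bmp1 and Itgav rose and Ltbp3, Ltbp4 and Plat fell, with 12 not called and a median of 0.23. Bmp1, a protease that cuts LTBP1 and procollagens, was at 229, 254 and 220 CPM in WT line 1 against 299, 343 and 315 in RTF2-deficient line 1, and at 123, 139 and 130 against 256, 256 and 264 in line 2. It rose by a log2 fold change of 0.72 (SE 0.0956, edgeR adjusted p = 0.000496). Itgav, the integrin subunit that pulls on latent TGF-beta, rose by 0.50 (adjusted p = 0.00816). Plat, tissue plasminogen activator, fell by 0.65 on the log2 scale (adjusted p = 0.00222).

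Of 10 co-receptors and related receptors, Acvr2b rose by 0.63 (edgeR adjusted p = 0.00637), Acvrl1 by 0.54 (0.0285), Acvr1 by 0.34 (0.0185) and Acvr2a by 0.20 (0.0419) on the log2 scale. Acvr1, Acvr2a and Acvr2b are receptors of activins and BMPs, and Acvrl1 is known mostly from endothelium. The endothelial marker Kdr was higher too (0.58, adjusted p = 0.0492), and the endothelial marker sums did not overlap between genotypes in line 1 but did in line 2. Their part in the rise of Acvrl1 was not tested. Tgfbr3, the co-receptor betaglycan that presents TGF-beta to TGFBR2, fell by 0.56 on the log2 scale (adjusted p = 0.0111), with -0.23 in line 1 and -0.89 in line 2. Like Tgfbr2 it was highest in WT line 2, at 38.7, 38.0 and 42.1 CPM, against 14.0 to 18.4 in WT line 1 and 21.3 to 21.5 in RTF2-deficient line 2. The other 5 did not pass, and the median of the list was 0.19. Of the 12 fits that each left out 1 library, Acvrl1 kept its call in 5, those without WT line 1 replicates 1 and 3, RTF2-deficient line 1 replicate 1, WT line 2 replicate 1 or RTF2-deficient line 2 replicate 3, and reached an adjusted p of up to 0.065 in the others. Acvr2a kept its call in 4, those without WT line 1 replicates 1 and 3, RTF2-deficient line 1 replicate 1 or RTF2-deficient line 2 replicate 3, and reached up to 0.0907. With the replicate block Acvr1 (adjusted p = 0.0613) and Acvr2a (0.104) were no longer called, and without the line term Acvr1 (0.212) and Tgfbr3 (0.202) were not. Acvr2a was not called with the interferon score as a term (0.20, adjusted p = 0.083) or with no filter on low counts (0.22, adjusted p = 0.0535).

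Of the 9 tested SMADs and partners 0 were called by edgeR (median 0.09), and 2, Smad2 and Ep300, had an unadjusted p under 0.05. DESeq2 gave Smad2 an adjusted p of 0.0362. Smad2 was at 0.09 (adjusted p = 0.151), Smad3 at 0.10 (adjusted p = 0.51) and Smad4 at 0.01 (adjusted p = 0.894) on the log2 scale. Of 16 inhibitors, Smurf1 rose by 0.37 (adjusted p = 0.0118) and Smurf2 by 0.19 (adjusted p = 0.0189), both ubiquitin ligases that mark TGF-beta receptors for degradation. Smurf2 was at an adjusted p of 0.0524 without RTF2-deficient line 2 replicate 2. The other 14, with a list median of 0.04, did not pass.

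Of 29 TGF-beta target genes of fibroblasts, 4 rose, 0 fell and 25 did not pass, with a median log2 fold change of 0.08. Those that rose were Ccn4 (0.74, edgeR adjusted p = 0.0161), a matricellular protein, Tnc (0.70, adjusted p = 0.0277), the matrix protein tenascin C, Inhba (0.65, adjusted p = 0.00846), the activin A subunit, and Ccn2 (0.44, adjusted p = 0.0322), connective tissue growth factor. Ccn4 was at 340, 323 and 266 CPM in WT line 1 and 408, 404 and 293 in RTF2-deficient line 1, and at 113, 117 and 108 against 265, 235 and 298 in line 2. Its WT libraries of line 2 were the lowest of all 12. The call of Ccn2 was lost in 6 of the 12 fits that left out 1 library, those without WT line 1 replicate 1 or 2, WT line 2 replicate 2, RTF2-deficient line 1 replicate 3 or RTF2-deficient line 2 replicate 1 or 2, with an adjusted p of up to 0.0853. That of Tnc was lost without RTF2-deficient line 1 replicate 3 (0.0705), WT line 2 replicate 2 (0.0542) or RTF2-deficient line 2 replicate 2 (0.0539). With the interferon score as a term Tnc (0.62, adjusted p = 0.0837) and Ccn2 (0.41, adjusted p = 0.0603) were not called. With the replicate block Ccn4 (0.0501) and Tnc (0.068) were not called, and without the line term Ccn4 (0.295) and Ccn2 (0.0788) were not. Among targets that did not pass, the feedback regulator Pmepa1 was at 0.29 (adjusted p = 0.11, 0.0288 without WT line 2 replicate 1 and 0.0151 with the interferon score as a term), the SMAD corepressor Skil at 0.26 (adjusted p = 0.288), smooth muscle actin Acta2 at 0.22 (adjusted p = 0.39) and collagen Col1a1 at 0.01 (adjusted p = 0.96).

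By line, 1 pathway gene was called higher (Bmp1) and 1 lower (Ltbp4) in line 1, or 2.47% of 81 where 3.20% of all genes were called. In line 2, 9 were higher and 4 lower, 16% against 12.5%. Between the WT groups 3 were higher and 11 lower in line 2, 17.3% against 14.0%. These shares lie near those of all genes, while over both lines 16 of 81 were called, or 19.8% against 13.2%. The interaction called 2, Bmp1 and Ccn4, both with the larger rise in line 2, which is 2.47% of 81 against 1.29% of all genes. Between the RTF2-deficient groups 1 was called, Tgfbr3, higher in line 2, which is 1.23% against 1.94%.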

How the data were processed

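RNA of 12 libraries was sequenced as single reads. The authors deposited raw counts per gene by Entrez Gene number, not normalized, 1 column per library. Salmon, tximport and mm10 gene models appear in the methods for this step, whereas HTSeq is the counter in the submitters' processing notes, so which counter was used was not settled. Neither poly(A) selection nor the use of strand was stated. Each column was assigned to the sample whose title it carries. RefSeq GRCm38.p6 gave symbols for 24045 of the 24100 identifiers, and GENCODE M21 gave positions and exons.

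The 14263 genes that passed filterByExpr were scaled by TMM and tested by the quasi-likelihood functions of edgeR 4.0.16 in R 4.3.3, with terms for line and genotype over both lines and a layout of the 4 groups for effects within lines, their difference (interaction) and the difference between lines. A call is a Benjamini-Hochberg adjusted p under 0.05 over all tested genes. Standard errors were derived from each coefficient and its F statistic, and 95% intervals from the t distribution of the fit. For the shallowest library, a count of 0 allows up to 3 counts (0.0762 CPM), counting error alone considered. Within groups, libraries differed by far more than sampling noise (chi-square per degree of freedom 20.5 to 179.5), so each was kept. Scripts were tested on simulated data. The genes described and the pathway and marker lists were chosen with earlier results of these data known. Named pathway genes are up to 6 called genes a list with the largest log2 fold change over both lines and the same sign in both, textbook targets, Smad2, Smad3 and Smad4 whatever their values, and the 2 genes most correlated with each of the 9. Some items that this rule names are not reported here. The alternatives tried were RLE factors, dropping the filter, requiring 1 CPM in 6 libraries, DESeq2 1.42.0, a replicate block, no line term, summed libraries, the longest transcript as gene length, each library left out and, added after the values were seen, the interferon score as a term.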

Additional observations from a re-analysis of the deposited data

Results flagged for a closer look

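In sets of 6 libraries of a genotype, the highest or lowest library was examined for each of the 9 genes, 18 sets in all, and 2 held a library apart from the rest. Chance alone gives about 1 in 20 for independent values. Each set here pools technical replicates of 2 lines, so that rate may not apply. Both flagged libraries were Tgfb3 in replicate 1 of line 1, where libraries of the same number were paired, so they are not independent. In WT cells that library had 718 CPM, the next 516, a gap of 0.882 of the range. In RTF2-deficient cells it had 1039 CPM, the next 654, a gap of 0.739 of the range.

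The effect of genotype differed between lines for 2 further pathway genes by the edgeR interaction test. Bmp1 differed by a log2 fold change of 0.54 (SE 0.111, adjusted p = 0.0431) and Ccn4 by 0.99 (SE 0.197, adjusted p = 0.0392), both rising more in line 2, where the WT libraries were the lowest of the 12.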

How the results depend on the processing

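Of the 9 genes, 0 passed for genotype over both lines, 1 (Ltbp2) with DESeq2 and 1 (Ltbp2) with a replicate block. These fits called 1878, 2697 and 1427 of all genes. When 1 library was left out, 0 to 2 passed, beside 1158 to 1974 of all genes. Within line 1 the count was 0, beside 456 of all genes. It stayed at 0 in every fit that left out 1 library, beside 192 to 480 of all genes. Within line 2 it was 3, with a range of 2 to 4 without 1 library and 6 with the interferon score as a term, where 1776, 813 to 2372 and 1965 of all genes were called. For the interaction it was 0, with 1 under the filter of 1 CPM, 3 with DESeq2, 1 with the interferon score and 0 to 1 without 1 library, beside 184, 165, 409, 329 and 66 to 164 of all genes. Between the WT lines it was 4, with 7 under the interferon score and 4 to 5 without 1 library, beside 1998, 2617 and 1260 to 2221 of all genes. Between the RTF2-deficient groups it was 0, with 1 under DESeq2, 1 under the interferon score and 0 without any 1 library, beside 276, 695, 1204 and 119 to 400 of all genes. Of the pathway genes, 16 were called, 11 to 19 without 1 library and 0 with the libraries of each group summed, a fit of 4 samples and 3 terms in which no gene was called and Rtf2 had an adjusted p of 0.102. Ltbp2 between the WT lines turned from 0.59 to -0.89 (adjusted p = 0.0437) with the interferon score. The cause was not tested.

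The replicate block took the same-numbered libraries of both genotypes of a line as a pair. Their deviations correlated at 0.43 to 0.625 in line 1, each best with its own number, and at -0.587 to 0.17 in line 2, none best with its own, so the numbers paired libraries in line 1 and not in line 2. Within line 1 the block called 0 of the 9, as without it. At an unadjusted p under 0.05 with edgeR it had 2, Tgfb3 and Ltbp2, where 14.3% of all genes were. With the block, Ltbp2 was at -1.03 (adjusted p = 0.0427), 12 pathway genes were called against 16 (Acvr1, Acvr2a, Ccn4 and Tnc were lost), and 1427 of all genes against 1878. The block could not be applied between lines.

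The 9 genes had over 1000 counts in each library, and depth as a limit was not tested. With 2 lines of each genotype, and technical replicates within them, an effect of RTF2 cannot be told apart from differences between embryos in either line alone.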
